A study of Mus musculus with 10 samples.

Results

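The small structural noncoding RNAs described here were the 120 rows, of 30978 in each deposited file, that carried a RefSeq noncoding identifier and a symbol beginning with Snora, Snord, Scarna or Rnu, or that were named Rmrp, Rpph1, Terc or Vaultrc5. Each of the 120 had 1 row. They comprised 69 box C/D small nucleolar RNAs (snoRNAs), 36 box H/ACA snoRNAs, 9 small Cajal body RNAs (scaRNAs), the minor spliceosomal RNAs Rnu11 and Rnu12, and 4 other RNAs. The 7SK and 7SL RNAs, the Y RNAs Rny1 and Rny3 and the remaining spliceosomal RNAs are not analysed here.

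The RNA came from Neuro-2a, a mouse neuroblastoma line labelled with the strains C57BL/6+C57BL/6J+CBA. All groups received Stealth siRNA by reverse transfection with RNAiMAX in a differentiation medium with 2% serum. The siRNA targeted Sfpq, which encodes a nuclear RNA-binding protein, or luciferase (Luc), which the cells lack. RNA depleted of ribosomal RNA (rRNA) was sequenced from 1 Sfpq and 1 Luc library, and poly(A)-selected RNA from 3 Sfpq and 3 Luc libraries. RNA polymerase II chromatin immunoprecipitation, labelled with 1 library a group, is not analysed here. The labels do not state whether the libraries of a group stem from independent cultures; the tests then reflect only library-to-library spread, possibly technical.

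SnoRNAs guide chemical modification of other RNAs. Box C/D snoRNAs direct methylation of ribose in ribosomal RNA, and box H/ACA snoRNAs direct the conversion of uridine to pseudouridine. ScaRNAs do the same work on spliceosomal RNAs in Cajal bodies. In mammals most of these RNAs are trimmed out of introns of host genes and carry no poly(A) tail. Rmrp is the RNA of RNase MRP, which cleaves the precursor of ribosomal RNA; Rpph1 is the catalytic RNA of RNase P, which trims the 5′ end of transfer RNAs. Terc is the template RNA of telomerase, and Vaultrc5 is a vault RNA; unlike Terc, the other 3 are made by RNA polymerase III.

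The deposited unit was RPKM, the reads of a row divided by its length and by the library's total. For most of these short rows, RPKM times annotated length fell on whole multiples of 1 value per library. This returned the number of reads behind each value and the depth. Some values of Rpph1, Scarna13, Snora28 and Snord35b were not whole, and their reads were rounded. The depths, in mega-reads (M), were 64.2 M reads (Sfpq) and 63.8 M reads (Luc) in rRNA-depleted RNA, and 15.2 to 28.2 M reads (Sfpq) and 24.2 to 30.9 M reads (Luc) in poly(A) RNA. Sfpq itself, the targeted gene, had 4.43 RPKM in Sfpq cells and 30.8 RPKM in Luc cells in rRNA-depleted RNA. Poly(A) RNA gave 3.98, 4.75 and 6.47 RPKM in Sfpq cells, against 56.8, 60.8 and 73.0 RPKM in Luc cells (log2 change -3.54, limma, adjusted p = 1.56e-06). Of 10 neuroblastoma markers 9 were at 1 RPKM or more in all 8 libraries, and none of the fibroblast, glial or leukocyte markers was. Total RNA was purified on RNeasy Midi columns per the labels' protocols, and silica columns of this kind retain short RNAs poorly.

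The only members with a sequence in the tables used here were those that overlap an annotated microRNA hairpin, and 3 of these hairpins bear on where reads fell. Mir1843b lies wholly within the scaRNA Scarna3a, Mir1843a overlaps Scarna3b, and Mir5121 overlaps the end of the box C/D snoRNA Snord33 over 28 nucleotides. The hairpins are given 5′ to 3′ from RefSeq (GRCm38.p6), with the mature microRNAs in capitals. Mir1843b is at chr1:159340358-159340423 on the plus strand, Mir1843a at chr12:80391613-80391677 on the minus strand, and Mir5121 at chr7:45126918-45126991 on the minus strand.
Mir1843b: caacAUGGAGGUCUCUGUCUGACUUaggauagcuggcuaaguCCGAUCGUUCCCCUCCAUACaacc
Mir1843a: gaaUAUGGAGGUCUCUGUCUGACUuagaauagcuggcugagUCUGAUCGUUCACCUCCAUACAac
Mir5121: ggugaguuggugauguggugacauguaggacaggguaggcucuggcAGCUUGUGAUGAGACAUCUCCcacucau

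Mir1843b and Mir1843a differ by 7 single-base edits over 66 and 65 nucleotides. The Mir1843b row held 9 reads in the Sfpq and 9 in the Luc rRNA-depleted library, against 14 and 12 reads on Scarna3a as a whole, and no read in poly(A) RNA. Mir1843a and Scarna3b had no read in any of the 8 libraries. Mir5121 held 3 reads in the Sfpq and 1 in the Luc rRNA-depleted library, where Snord33 had 0 and 1. Its poly(A) libraries had no read on Mir5121 and 90 reads on Snord33.

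The preparations overlapped in part in the members they showed. Of the 120, 38 had at least 1 read in both preparations, 10 in rRNA-depleted RNA only, 27 in poly(A) RNA only, and 45 in neither; many of those seen in 1 preparation had 5 reads or fewer. A row with no read in the Luc rRNA-depleted library could have gone unseen at up to 3 reads, which for Snora64 (117 nucleotides) is 0.402 RPKM. The members took 1.87% of all reads in the Sfpq rRNA-depleted library and 2.83% in the Luc one. They took 0.00151% to 0.00164% of the reads in Sfpq poly(A) libraries and 0.00172% to 0.00188% in Luc poly(A) libraries. Nearly all of the rRNA-depleted reads belonged to Rmrp, Rpph1, Vaultrc5 and Terc: the other 116 members together held 948 reads in the Sfpq library and 1000 in the Luc library.

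**Figure D1:**
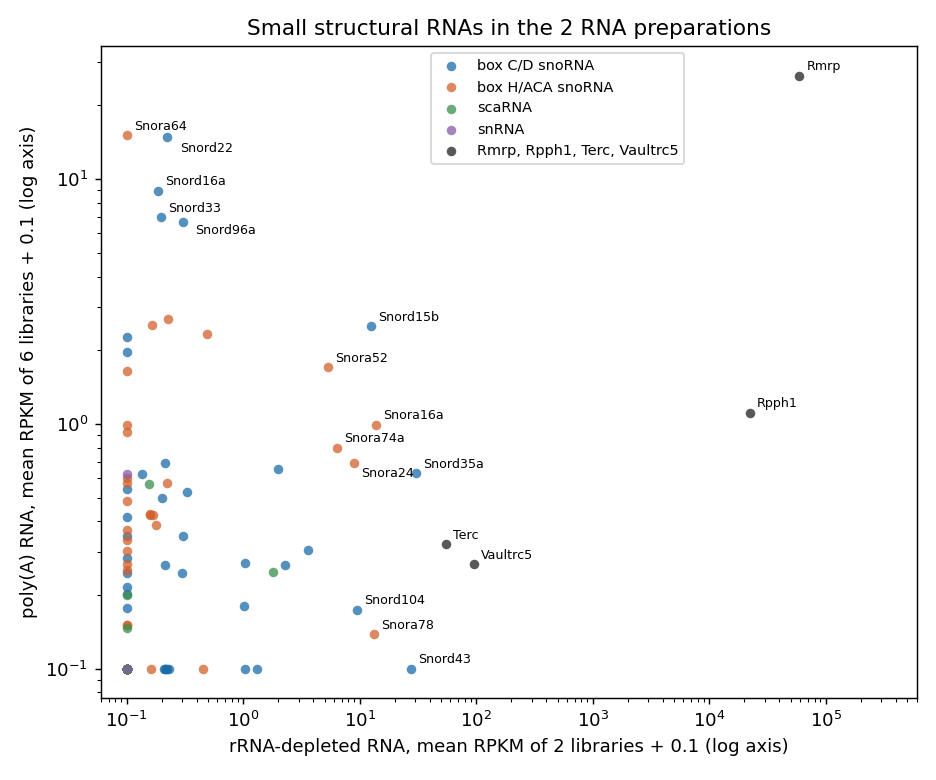
Mean RPKM of each of the 120 members in rRNA-depleted RNA (x axis, 2 libraries) and in poly(A) RNA (y axis, 6 libraries), both with 0.1 added and on log axes; colours mark the classes and members at 5 RPKM or more in either are named. Rmrp and Rpph1 stand at the far right, and Snora64, Snord22, Snord16a, Snord33 and Snord96a along the left edge are high in poly(A) RNA only.

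Annotated length and level went together in rRNA-depleted RNA. Of 45 members shorter than 70 nucleotides 1 had a mean of at least 5 RPKM there, of 28 from 70 to 99 nucleotides 2 did, of 33 from 100 to under 140 nucleotides 3 did, and of 14 at 140 nucleotides or longer 7 did. The exception among the shortest was Snord43, annotated at 48 nucleotides. The 7 in the longest bin included all 4 of Rmrp, Rpph1, Terc and Vaultrc5, which are 275 to 397 nucleotides long. Scarna13, also of 275 nucleotides, had 1 read in each rRNA-depleted library, and Rnu12, of 150 nucleotides, had none. Any read in poly(A) RNA was seen for 10, 17, 24 and 14 members of these length bins. Class and length went together: the median was 68 nucleotides for box C/D and 119.5 for box H/ACA snoRNAs, so class and length cannot be told apart here. The part of column retention and of read mapping in these counts was not tested.

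**Figure D2:**
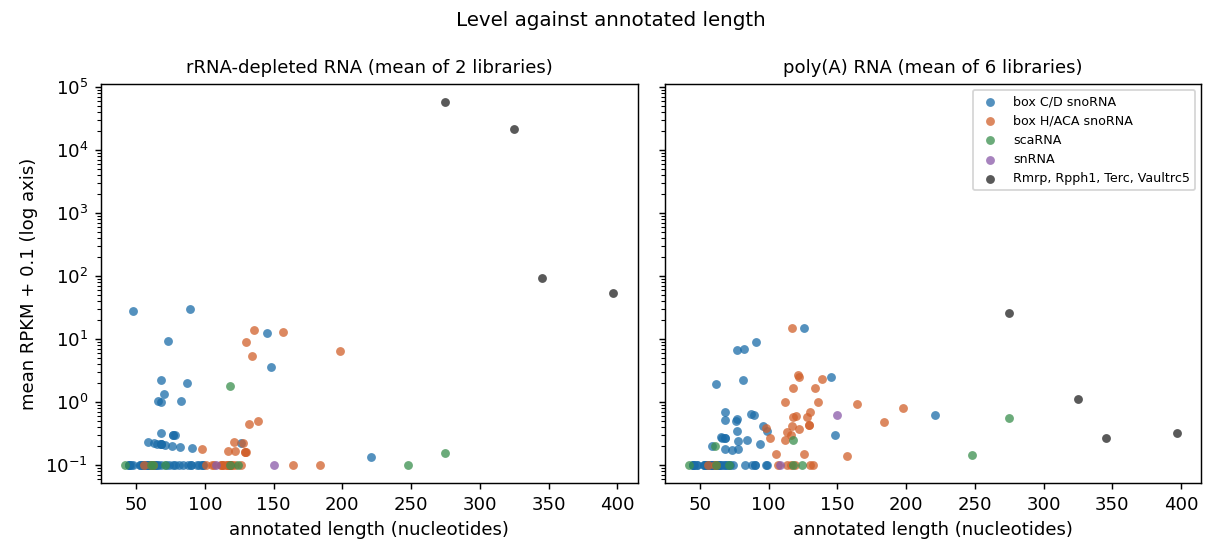
Mean RPKM plus 0.1 (log axis) against annotated length in nucleotides, with rRNA-depleted RNA on the left and poly(A) RNA on the right; each point is 1 of the 120 members, coloured by class. In rRNA-depleted RNA the members above 5 RPKM are mostly those of 130 nucleotides or longer, and in poly(A) RNA members of 100 nucleotides or longer are at both ends of the range of levels.

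Rmrp and Rpph1 were the 2 most abundant rows of both rRNA-depleted libraries. Rmrp had 42836 RPKM in the Sfpq and 75042 RPKM in the Luc rRNA-depleted library, equal to 0.756 and 1.32 M reads. That was 1.18% of the reads in Sfpq cells (Wilson 95% interval 1.175% to 1.181%) and 2.06% in Luc cells (2.060% to 2.067%); intervals cover counting error only. In poly(A) RNA it had 26.1, 23.4 and 19.0 RPKM in Sfpq libraries and 43.3, 29.9 and 16.7 RPKM in Luc libraries, the highest mean of any member in that preparation too. Its mean was 2233 times higher in rRNA-depleted than in poly(A) RNA.

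Rpph1 had 21060 RPKM in the Sfpq and 23270 RPKM in the Luc rRNA-depleted library. In poly(A) RNA it had 0.202, 1.14 and 0.885 RPKM in Sfpq libraries and 0.635, 1.66 and 1.54 RPKM in Luc libraries. It thus stood below Rmrp by less than 4-fold in rRNA-depleted RNA and by more than 10-fold in poly(A) RNA, on the RPKM scale. The vault RNA Vaultrc5 had 95.2 RPKM in Sfpq and 94.2 RPKM in Luc rRNA-depleted RNA. Its poly(A) reads numbered 3, 2 and 2 in Sfpq libraries and none in the 3 Luc libraries. Terc had 57.4 RPKM in Sfpq and 52.1 RPKM in Luc rRNA-depleted RNA, and 0.104 to 0.326 RPKM over the 6 poly(A) libraries.

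The box C/D snoRNAs with most signal in rRNA-depleted RNA were Snord35a, with 29.4 RPKM in Sfpq and 31.7 in Luc cells, and Snord43, with 25.6 and 29.7. They were followed by Snord15b (11.2 in Sfpq and 13.5 in Luc), Snord104 (10.0 and 8.59) and Snord15a (4.84 and 2.22). Among box H/ACA snoRNAs the highest were Snora16a, with 11.6 RPKM in Sfpq and 15.9 in Luc cells, and Snora78, with 15.1 and 11.1. Snora24 (7.67 in Sfpq and 9.88 in Luc), Snora74a (5.27 and 7.36) and Snora52 (4.07 and 6.43) came next. Per unit length, each snoRNA thus stood more than 1000-fold below Rmrp in both libraries. Of the scaRNAs, Scarna3a had 1.85 RPKM in Sfpq and 1.59 in Luc cells, Scarna13 had 1 read in each library, and the other 7 had none. Rnu12, the RNA of the minor spliceosome that recognises the branch point, had no rRNA-depleted read and 0 to 4 reads per poly(A) library; Rnu11 had no read anywhere.

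Some snoRNAs were seen mainly in the poly(A) libraries. Snora64 had no read in either rRNA-depleted library, against 10.7, 21.8 and 20.3 RPKM in Sfpq and 5.65, 8.68 and 23.3 RPKM in Luc poly(A) libraries. Taking 3 reads as the floor of each rRNA-depleted library, it was at least 37.5-fold lower in rRNA-depleted RNA. Snord22 had 0.247 and 0 RPKM (Sfpq and Luc, 2 reads in all) in rRNA-depleted RNA, against 15.7, 11.5 and 18.3 RPKM in Sfpq and 15.1, 18.7 and 9.0 RPKM in Luc poly(A) RNA. Snord16a, Snord33 and Snord96a had 1, 1 and 2 reads in rRNA-depleted RNA, and means of 8.85, 6.90 and 6.60 RPKM in poly(A) RNA. Snord43 was the converse: 170 reads in rRNA-depleted RNA and none in poly(A) RNA, where its floor was 2.02 to 4.11 RPKM, so that it was at least 6.73-fold higher in rRNA-depleted RNA.

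A limma fit over all 8 libraries, with siRNA as a term, tested 30 members with a mean of at least 0.5 RPKM. Of these 17 were higher and 12 lower in rRNA-depleted than in poly(A) RNA at an adjusted p under 0.05, and 1 (Snora43) was not called. Over all 11734 genes tested, 6.97% were higher and 61.1% lower. After median-ratio scaling, which moved the median log2 difference of all genes from -0.47 to 0.02, these shares were 29.2% and 27.1%, and the counts of members were again 17 and 12. The median log2 difference over the tested members was 1.73, and 2.15 after that scaling. It was 0.17 without the Sfpq and 0.93 without the Luc rRNA-depleted library, and -0.21 with every row kept. A member reached the fit mainly through the preparation in which it was high, so the counts describe those 30 members and not the 90 others. All 4 of Rmrp, Rpph1, Vaultrc5 and Terc were higher, as were 7 of 13 box C/D and 5 of 12 box H/ACA snoRNAs and the 1 scaRNA tested. Snora78 had a log2 difference of 4.66 (SE 0.18, adjusted p = 5.53e-09) and Snora16a one of 3.47 (SE 0.40, adjusted p = 2.07e-05). Among the 12 lower members were Snord22, at -4.59 (SE 0.25, adjusted p = 6.66e-08), and Snora28, at -2.31 (SE 0.28, adjusted p = 3.36e-05).

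In some host genes, among them Rps2 and Rpl13a, members of the same gene fell on opposite sides. There were 23 genes that contained 2 or more members, and many of those members had few reads or none. By span, 112 of the 120 lay within another gene, 33 of them within a ribosomal protein gene and 19 within a small nucleolar RNA host gene (Snhg). Rps2, which encodes a ribosomal protein, contains Snora64, seen in poly(A) RNA only, and Snora78, which had 263 reads in rRNA-depleted RNA and 1 in poly(A) RNA and also lies within the span of Snhg9. Rpl13a contains Snord35a, with 348 reads in rRNA-depleted and 8 in poly(A) RNA, and Snord32a, with 0 and 29. It also contains Snord33, with 1 and 90, and Snord34, with no read in either. Rpl3 contains Snord43, with 170 and 0 reads, and Snord83b, with 2 and 3. In Rps3, both Snord15b (229 and 54 reads) and Snord15a (67 and 5) had most reads in rRNA-depleted RNA. Since the treatment of strand and of overlapping rows is not given in the sources used here, reads of a member and of unspliced or overlapping host RNA cannot be told apart.

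The ratio of Sfpq to Luc in rRNA-depleted RNA has no replicate check, with 1 library a group, and is described without a test. Rmrp was the member that stood furthest below 1 among those with many reads. Its plain ratio was 0.571, with a 95% interval from read counting of 0.569 to 0.572, a log2 ratio of -0.81. Of 660 genes that averaged 50 RPKM or more in these libraries, 38 (5.76%) had a ratio as low or lower. Rpph1, the RNA of the sister enzyme, had a ratio of 0.905 (0.901 to 0.909), Vaultrc5 1.01 (0.951 to 1.07) and Terc 1.10 (1.02 to 1.19). Rpph1 thus lay between Rmrp and the other 2, with 55.3% of those 660 genes at or below it.

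With both libraries averaging at least 0.5 RPKM, 21 members had a log2 ratio on the log2(RPKM + 0.5) scale. The median was -0.11 over these members, with 10 above and 11 below 0, and -0.02 over 11386 genes. One member, Snord95, was at least 2-fold higher, with 7 reads in Sfpq and 1 in Luc cells, and none was at least 2-fold lower. Over all genes 1.65% were at least 2-fold higher and 5.18% lower. With 21 members, a count of 1 on 8 reads is not a result about the members.

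Box H/ACA snoRNAs had a median log2 ratio of -0.44 over 5 members, 4 of them below 0; with no minimum on level the class median was 0.18. Snora16a had a plain ratio of 0.728 (0.557 to 0.948), Snora74a of 0.716 (0.515 to 0.991), Snora52 of 0.633 (0.402 to 0.984) and Snora24 of 0.776 (0.551 to 1.09). Snora78 was above 1, at 1.36 (1.06 to 1.76). For comparison, 6235 genes with means from 5 to 50 RPKM had a median log2 ratio of -0.03, and 46.9% of them were above 0. The 9 members in that range had a median of -0.26, with 2 above 0.

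Box C/D snoRNAs had a median log2 ratio of 0.18 over 11 members, 6 above and 5 below 0. That median was the value of Snord4a, on 6 and 5 reads. Most of these members averaged under 5 RPKM, whereas all the box H/ACA members with a ratio averaged more. Over all classes, the 8 members from 0.5 to 5 RPKM had a median of 0.28 and the 9 from 5 to 50 RPKM one of -0.26. Class and level thus cannot be told apart in these medians. Snord35a, Snord43 and Snord15b had plain ratios of 0.928 (0.748 to 1.15), 0.863 (0.630 to 1.18) and 0.827 (0.632 to 1.08), whose intervals all contain 1. Snord104 was at 1.17 (0.750 to 1.83). Snord15a was the exception, at 2.18 (1.27 to 3.84) on 46 and 21 reads, while its neighbour in the same host, Snord15b, lay below 1. Scarna3a was at 1.16 (0.498 to 2.75). For Scarna3a, with 26 reads, and Snord35b, with 21 (0.612, 0.220 to 1.59), no difference was detectable at this depth.

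**Figure D3:**
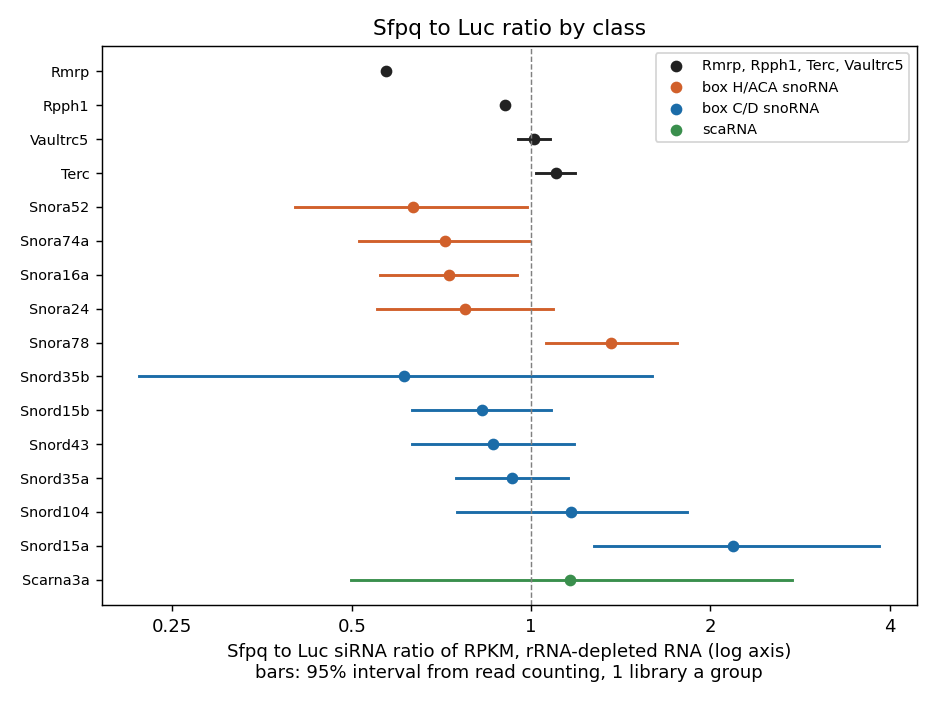
Ratio of RPKM in the Sfpq library to that in the Luc library of rRNA-depleted RNA (log axis) for the 16 members with at least 20 reads over both, grouped by class from top to bottom; bars are 95% intervals from read counting only. Rmrp lies at 0.571 with an interval narrower than its symbol, 4 of the 5 box H/ACA snoRNAs lie below 1, and Snord15a lies furthest to the right.

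Host genes of the box H/ACA snoRNAs did not show the same ratios as the members they contain. Snhg12, the host of Snora16a, had 67.2 RPKM in Sfpq and 25.5 RPKM in Luc rRNA-depleted RNA, while Snora16a had 11.6 and 15.9. Poly(A) libraries held Snhg12 at 192, 182 and 190 RPKM in Sfpq and 55.3, 57.8 and 99.5 RPKM in Luc libraries (log2 change 1.45, limma, adjusted p = 0.000481). Snhg8, the host of Snora24, was likewise higher in poly(A) RNA (log2 change 0.63, adjusted p = 0.0168), with 29.6 RPKM in Sfpq and 20.3 in Luc rRNA-depleted RNA against 7.67 and 9.88 for Snora24. Rplp2, which contains Snora52, had 185 RPKM in Sfpq and 161 in Luc, and Snhg4, which contains Snora74a, had 4.21 and 3.92. In poly(A) RNA neither was called, with log2 changes of 0.12 for Rplp2 (adjusted p = 0.784) and -0.06 for Snhg4 (adjusted p = 0.80). All 4 box H/ACA snoRNAs below 1 had a host above 1 in the same 2 libraries, by a small margin for Snhg4 and Rplp2. Snora78 showed the reverse with Rps2, which had 107 RPKM in Sfpq and 121 in Luc. Snhg9, whose span also contains Snora78, had 0.426 RPKM in Sfpq and 0.428 in Luc, a log2 ratio of -0.004. Which of these genes gives rise to Snora78 was not tested. For box C/D snoRNAs the signs were mixed, with log2 ratios of opposite sign in 5 of 9 pairs of member and host. The median log2 ratio of these hosts was -0.003, so the sign of a pair carries little information there. Rps3, the host of Snord15a and Snord15b, had 239 RPKM in both libraries, and Rpl3, the host of Snord43, had 49.9 in Sfpq and 49.2 in Luc.

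In poly(A) RNA, with 3 libraries a group, 26 members entered the limma comparison of Sfpq with Luc. One was higher and 2 were lower at an adjusted p under 0.05, and 23 were not called. Over all 11727 genes tested, 21.3% were higher and 18.6% lower. The median number of reads behind a tested member, over all 6 libraries, was 29, and 11 members had fewer than 20. At an unadjusted p under 0.05 the members numbered 2 higher and 3 lower. In Snord35a and Snord16a, 2 of the 26 (7.69%), every Sfpq library lay below every Luc library, against 24.7% of all genes. Every Sfpq library lay above in 0 members, against 28.2% of all genes. Both separations were narrow. For Snord35a, Sfpq library 3 had 0.431 and Luc library 1 had 0.464 RPKM, on 1 read each. For Snord16a, Sfpq library 3 had 7.16 RPKM (17 reads) and Luc library 2 had 7.18 RPKM (18 reads).

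The 3 called members all had few reads. Snord35a and Snord35b reached the minimum mean of 0.5 RPKM only through the Luc libraries, averaging 0.144 and 0.255 RPKM in Sfpq against 0.912 and 0.852 RPKM in Luc cells, so a call in that direction is not independent of the filter. Snora28, a box H/ACA snoRNA within the translation factor gene Eif5, had 3.26, 2.05 and 4.12 RPKM in Sfpq and 2.39, 1.20 and 1.61 RPKM in Luc libraries, from 43 reads in all. It rose by 0.70 on the log2(RPKM + 0.5) scale (SE 0.24, limma, adjusted p = 0.0468), with groups that overlap. Without Sfpq library 1 or 3 or Luc library 2 its adjusted p was 0.140, 0.163 and 0.124. The call was also lost under median-ratio scaling (0.0642), quantile normalization (0.0554) and with every row kept (0.120). Snord35a had 0, 0 and 0.431 RPKM in Sfpq and 0.464, 0.815 and 1.46 RPKM in Luc libraries, from 8 reads. It fell by 1.14 (SE 0.30, adjusted p = 0.0145), while its ratio on 348 reads of rRNA-depleted RNA was 0.928; without Sfpq library 1 or 2 the adjusted p was 0.0694 and 0.0593. Snord35b had 0.764, 0 and 0 RPKM in Sfpq and 0.961, 0.844 and 0.753 RPKM in Luc libraries, from 7 reads. It fell by 0.99 (SE 0.32, groups overlapping at 1 Sfpq library, adjusted p = 0.0341), and without Sfpq library 2 or 3 the adjusted p was 0.126 and 0.115, and 0.0925 with every row kept. Rpl13a, the host of Snord35a, was not called (log2 change -0.03, adjusted p = 0.842).

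Rmrp was not called in poly(A) RNA. Its log2 change was -0.30 (SE 0.29, adjusted p = 0.436), with 109, 182 and 136 reads in Sfpq and 288, 227 and 142 reads in Luc libraries. On the RPKM scale the Luc libraries spread more widely than the Sfpq libraries and contained both the highest and the lowest value. The change was 0.01 without Luc library 1 and -0.66 (adjusted p = 0.00482) without Luc library 3. Luc library 3 also held the highest Luc value for 15 of the 26 tested members and the highest of all 6 for 14. Its correlation with the other Luc libraries over all genes was 0.985 and 0.979, against 0.996 between those 2. Without it 7 members were called higher in place of 1, while the share of all genes called higher went from 21.3% to 30.9%.

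The 4 box H/ACA snoRNAs below 1 in rRNA-depleted RNA gave values on the other side in poly(A) RNA. Their log2 changes there were 0.77 for Snora16a, 0.65 for Snora24, 0.76 for Snora52 and 0.52 for Snora74a, and none was called (adjusted p from 0.0968 to 0.320). Each rested on 11 to 33 poly(A) reads. Snora24 and Snora74a reached the minimum mean of 0.5 RPKM only through the Sfpq libraries. They averaged 0.806 and 0.982 RPKM in Sfpq against 0.378 and 0.416 RPKM in Luc cells. Their direction is therefore not independent of the filter. The more abundant poly(A) members were not called either: Snora64 had a log2 change of 0.65 (adjusted p = 0.268), Snord22 of 0.12 (0.733), Snord16a of -0.89 (0.0718) and Snord33 of -0.25 (0.696).

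**Figure D4:**
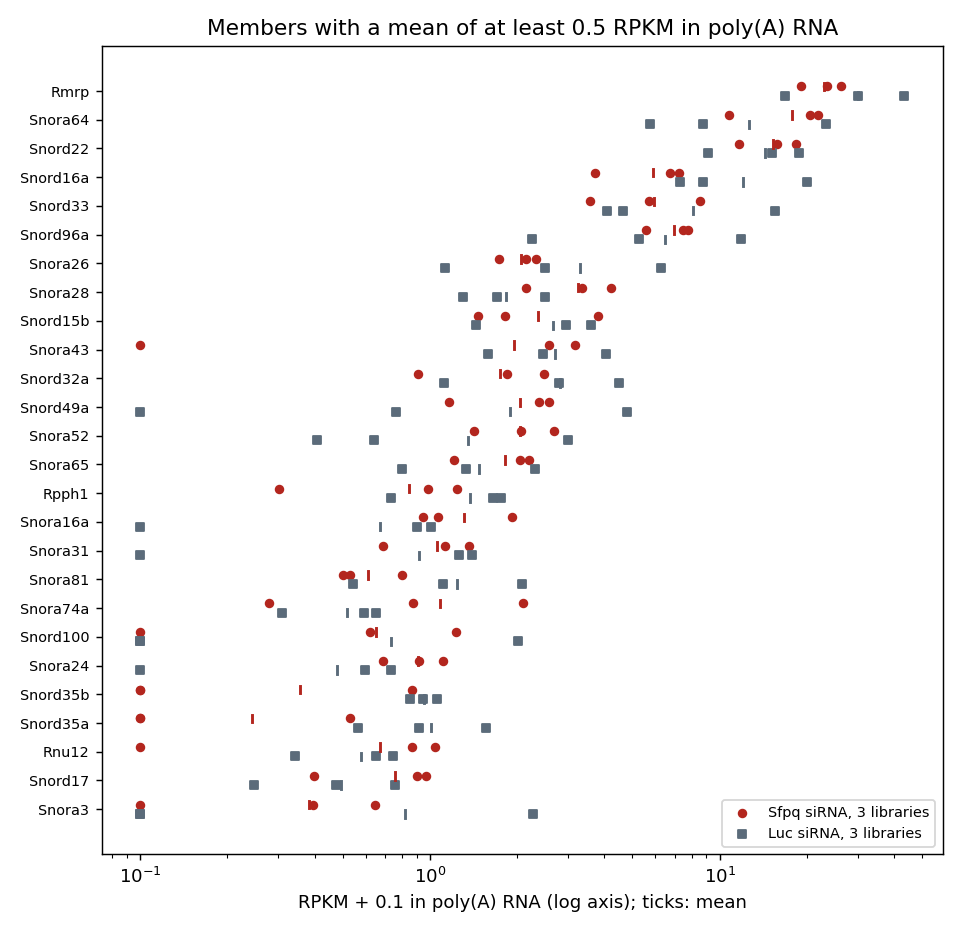
RPKM plus 0.1 (log axis) of the 26 members tested in poly(A) RNA, with the 3 Sfpq libraries (circles, upper row of each pair) above the 3 Luc libraries (squares, lower row); vertical ticks mark group means. The groups overlap for all members but Snord35a and Snord16a, whose Sfpq libraries all lie lower, by a narrow margin.

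The proteins that bind and mature these RNAs were read from 10 lists with 156 genes, all of them tested in poly(A) RNA. Of these 23 (14.7%) were higher and 19 (12.2%) lower in Sfpq cells, against the 21.3% and 18.6% of all genes. Of 11 core proteins and assembly factors of box C/D particles 3 were lower and none higher, with a median log2 change of -0.07 against 0.05 over all genes. Fbl, the methyltransferase fibrillarin, averaged 96.8 ± 3.01 RPKM in Sfpq and 125 ± 7.02 RPKM in Luc cells (SD, n = 3 each; log2 change -0.36, limma, adjusted p = 0.0132). Snu13, which binds the kink-turn of these RNAs, changed by -0.41 (adjusted p = 0.00609) and Nop56, a scaffold protein, by -0.35 (adjusted p = 0.0244). Nop58, the remaining core protein, had a log2 change of 0.32 and was not called (adjusted p = 0.0835). Among 10 genes of box H/ACA particles and Cajal bodies 2 were lower and 1 higher. Shq1, an assembly chaperone of the pseudouridine synthase dyskerin, averaged 7.39 ± 0.55 RPKM in Sfpq and 12.6 ± 0.27 RPKM in Luc cells (SD, n = 3 each; -0.73, limma, adjusted p = 0.00058). Nhp2, a core protein, changed by -0.49 (adjusted p = 0.0048), and Wrap53, which brings scaRNAs and Terc to Cajal bodies, by 0.54 (adjusted p = 0.0258). Dkc1, dyskerin itself, was not called (-0.29, adjusted p = 0.124), nor was Tert, the telomerase reverse transcriptase (0.01, adjusted p = 0.95).

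RNase P and RNase MRP share most of their proteins, and 4 of the 11 listed were lower and 1 higher, against 18.6% and 21.3% of all genes. Pop1, the largest shared subunit, averaged 4.91 ± 0.07 RPKM in Sfpq and 8.85 ± 0.16 RPKM in Luc cells (SD, n = 3 each; log2 change -0.79, limma, adjusted p = 0.000289). Rpp40 changed by -0.84 (adjusted p = 0.00214), Pop5 by -0.53 (adjusted p = 0.00716) and Rpp30 by -0.50 (adjusted p = 0.0101). Rpp25, another subunit, rose by 0.82 (adjusted p = 0.000534). The median log2 change over the list was 0.01. Among 21 genes of RNA polymerase III and its factors 4 were higher and 1 lower, no larger shares than over all genes. Polr3g, a polymerase subunit, averaged 13.5 ± 0.20 RPKM in Sfpq and 7.66 ± 1.34 RPKM in Luc cells (SD, n = 3 each; 0.79, limma, adjusted p = 0.00149). Maf1, the repressor of RNA polymerase III, rose by 0.59 (adjusted p = 0.00407), and Gtf3c5, a TFIIIC subunit, by 0.58 (adjusted p = 0.00242).

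Of 5 vault and Y RNA partners 1 was higher and 1 lower, shares close to the 21.3% and 18.6% of all genes. Ro60, which binds Y RNAs, averaged 4.79 ± 0.52 RPKM in Sfpq and 1.97 ± 0.63 RPKM in Luc cells (SD, n = 3 each; log2 change 1.12, limma, adjusted p = 0.0011). Mvp, the major vault protein, averaged 11.6 ± 0.60 RPKM in Sfpq and 18.6 ± 1.73 RPKM in Luc cells (-0.66, adjusted p = 0.00141). Of 7 genes of the 7SK particle 2 were higher: Larp7, which stabilises 7SK RNA, by 0.77 (adjusted p = 0.00113) and Ccnt2, a cyclin of the elongation factor P-TEFb, by 0.73 (adjusted p = 0.000767). Of 8 genes of the signal recognition particle 2 were lower, Srp72 by -0.65 (adjusted p = 0.0188) and Srp19 by -0.38 (adjusted p = 0.0306).

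Among 36 spliceosomal particle genes 7 were higher and 2 lower, no larger shares than the 21.3% and 18.6% of all genes. Zmat5, a protein of the minor U11/U12 particle that contains Rnu11 and Rnu12, averaged 17.4 ± 3.19 RPKM in Sfpq and 37.9 ± 6.37 RPKM in Luc cells (SD, n = 3 each; log2 change -1.10, limma, adjusted p = 0.00072). Pdcd7, of the same particle, changed by -0.54 (adjusted p = 0.0152), and Lsm8, of the U6 particle, by 0.47 (adjusted p = 0.00578). Of 30 genes for transcription, export and assembly of spliceosomal RNAs 6 were higher and 4 lower, again no larger shares than over all genes. The subunits of Integrator, which cuts their 3′ ends, included the 3 largest called changes: Ints9 by -0.68 (adjusted p = 0.00189), Ints3 by 0.57 (adjusted p = 0.00193) and Ints12 by 0.56 (adjusted p = 0.0159). Of 17 genes of the nuclear exosome and 3′ trimming 1 was called, a smaller share than over all genes. It was the exosome subunit Exosc8 (0.43, adjusted p = 0.00845).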

How the data were processed

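The authors deposited 1 table of RPKM for each RNA library, keyed by RefSeq identifier, as its header states; reads were from the Ion Proton system, per the labels' protocols, and TopHat2 2.0.10 and mouse build mm9 are named in the submitters' processing notes. The RPKM program and its handling of strand and of multiply matching reads are not stated there or in any label. Groups and replicate numbers came from the titles; the description of Sfpq poly(A) library 2 gives another number. Rows were named (98.5% of 30978) and lengths and hosts taken from a RefSeq table of GRCm38.p6, another build, so no member coordinates are given; hosts rest on span alone, where strand had been planned, since the table has none. Library depth was the number of reads that made RPKM times length whole for microRNA hairpin rows. For Sfpq library 1 and Luc library 2 of poly(A) RNA it rested on 2 such rows each. Member values within 0.02 reads or 0.2% of a whole number counted as whole. That held for 40 of 41 values above 0 in Sfpq and 32 of 33 in Luc rRNA-depleted RNA. In poly(A) RNA it held for 31 of 32, 43 of 45 and 35 of 37 values in Sfpq libraries. For the Luc poly(A) libraries it held for 32 of 34, 36 of 40 and 49 of 53.

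Comparisons were fitted with limma (3.58.1; R 4.3.3), using a prior trended on level and log2(RPKM + 0.5) as the response, 1 row per gene (highest mean), a mean of at least 0.5 RPKM and Benjamini-Hochberg adjustment over all genes tested; folds on this scale understate the change of low genes. The fit across preparations assumes the same siRNA difference in both. Tested on simulated data, the poly(A) comparison recovered 90.3% of genes changed by 1 log2 unit and 18.5% of those changed by 0.5. The changed genes were drawn from all 11727 tested genes, so these rates need not hold for the members, which had few reads and SEs of 0.24 to 0.69. Ratio intervals in rRNA-depleted RNA are exact conditional binomial ones on whole reads, with no allowance for spread between libraries. Python 3.11.15, pandas 2.3.3 and scipy 1.17.1 were used.

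The members and lists were chosen with earlier results of these data known. Named were Sfpq, the 5 members highest in rRNA-depleted RNA per class, the 3 largest ratios in each direction at 5 RPKM or more, each single-copy RNA and Rnu row, members called in poly(A) RNA, their hosts, and the 3 largest called changes per protein list. Snora64, Snord22, Snord16a, Snord33, Snord96a, Snord32a, Snord34, Snord83b, Snord95, Snora43, Scarna3b, Rnu11, Pop5, Rpp30, Nop58, Dkc1 and Tert were added after their values were seen.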

Additional observations from a re-analysis of the deposited data

How the results depend on the processing

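The counts of poly(A) members called were the least stable results. The count of members higher, 1 as reported, was 0 under median-ratio scaling, 0 under quantile normalization and 0 to 7 when 1 library was left out. Under these settings 19.9%, 22.5% and 13.2% to 30.9% of all genes were higher. The count of members lower, 2 as reported, was 1 with every row kept, 0 under a minimum mean of 2 RPKM and 0 to 3 when 1 library was left out. There 13.3%, 18.7% and 14.3% to 22.5% of all genes were lower. With the replicate number as a block, 5 members were higher and 6 lower, against 22.9% and 19.7% of all genes. Same-numbered libraries correlated at 0.327, -0.035 and 0.157 in their deviations from the group means, and differently numbered ones at -0.277 to 0.166. With 3 libraries a group, these values cannot show whether the libraries were paired. Between preparations, the count lower, 12 as reported, was 5 with a minimum mean of 2 RPKM, where fewer members (18) were tested. Of all genes 65.8% were lower under that minimum. In rRNA-depleted RNA the members at least 2-fold higher numbered 3 with a pseudocount of 0.1 and 0 with a minimum mean of 5 RPKM, and the box H/ACA median was 0.18 with no minimum on level. Under median-ratio scaling the log2 ratio was -0.79 for Rmrp and -0.12 for Rpph1. The poly(A) log2 change of Rmrp was -0.30, with a range of -0.66 to 0.014 when 1 library was left out. Of the single-gene values under an alternative, 493 kept their direction and side of the threshold, 21 lost the call, 1 gained it and 1 reversed; the cause was not tested.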
